A study of Mus musculus with 24 samples.

Results

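The comparison described here is that of adult (8wk) bone marrow progenitors with an induced MLL::ENL, called ME, against control progenitors of the same age. It was chosen by sample group and not by any measured value, and it takes 8 of the 24 libraries of the series, 4 ME and 4 control, over all genes. Both groups were sorted Lineage-Sca1+KIT+ (LSK) cells, the surface phenotype of blood stem cells and of the progenitors just below them, taken from bone marrow of 8wk mice and cultured for 48 h before RNA-seq. The ME cells came from Tet-On-ME mice, in which the fusion was induced during culture. The control cells came from control mice, whose alleles, like the inducing agent and whether controls received it, are not given in the sources used here. The series holds the same pair of groups at P14 (bone marrow) and E16 (liver), with 4 libraries in each of 6 groups. No label says that the replicates came from separate animals or cultures, so each p-value rests on the spread of these libraries alone, which may be technical.

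MLL::ENL joins the chromatin factor MLL, encoded by Kmt2a, to ENL, encoded by Mllt1. ENL belongs to a complex that releases paused RNA polymerase II, and fusions of this kind are known to hold posterior Hoxa genes and other progenitor genes active and to cause acute leukaemia. The stem cells among adult LSK cells divide rarely in the marrow and enter the cell cycle in culture with cytokines, which calls on Myc, ribosome production and glycolysis.

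Expression is given as CPM, the counts of a gene scaled to the TMM-normalised library size, in the order of replicates 1 to 4 wherever 4 values stand together. Log2 fold changes are ME over control with their SE. Calls are those of the quasi-likelihood test of edgeR with Benjamini-Hochberg adjustment at 0.05, with the spread estimated from all 24 libraries. A gene with a dagger (†) at its first mention was chosen after its values were seen, and the others were named by rule. The 8 libraries held 39.3 to 69.3 M counts and 23125 to 25501 detected genes. Total counts (exact two-sided permutation p = 0.257) and the share of ribosomal RNA (p = 0.657) overlapped between the groups. The share of mitochondrially encoded mRNA lay at 0.139 to 0.190% in ME and 0.231 to 0.378% in controls, without overlap (exact permutation p = 0.0286, the smallest that 4 against 4 can give, adjusted p = 0.143 over 5 measures). Sex-linked genes summed to 218 to 269 CPM in ME replicates 1 and 3 and control replicate 1 and to 39.5 to 60.7 CPM in the other 5 libraries, and none of 5 such genes was called.

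Both groups held a library that stood apart from its group. On the first principal component of the 8 libraries, which carried 52.3% of the variance, ME replicates 1 to 3 lay at -85.1, -75.2 and -64.4 and control replicates 2 to 4 at 70.6, 85.0 and 72.6. ME replicate 4, at -6.93, and control replicate 1, at 3.44, lay between them. These 2 libraries were singled out after the data were seen, and counts without them are given where they move a result by over 1.5 times. The 24 monocyte and macrophage markers show how they differ: their summed level was 856, 776, 704 and 189 CPM in ME and 518, 106, 91.7 and 104 CPM in controls. In bulk RNA, fewer cells of a type and less RNA per cell cannot be told apart.

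**Figure D1:**
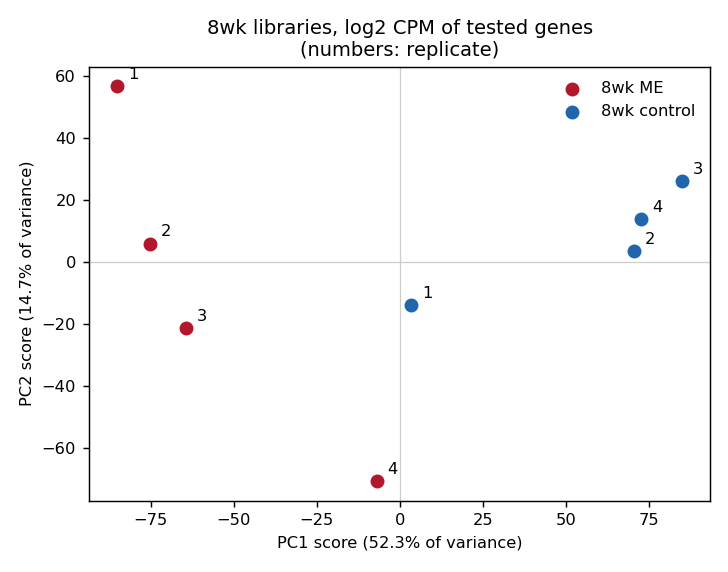
First and second principal components of log2 CPM over the tested genes in the 8 libraries of the 8wk comparison, with the share of variance on each axis; each point is a library, coloured by group and numbered by replicate. ME replicates 1 to 3 lie on the left and control replicates 2 to 4 on the right of the first component (52.3%), with ME replicate 4 and control replicate 1 near its middle.

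The genes of the fusion partners and the sorted phenotype were checked first. Mllt1 stood at 54.0, 54.8, 50.8 and 35.7 CPM in ME and at 20.7, 20.3, 9.90 and 19.0 CPM in controls. Kmt2a stood at 26.9, 27.1, 25.4 and 17.6 CPM in ME and at 15.3, 16.2, 11.9 and 15.1 CPM in controls. Both were higher in every ME library than in any control, and counts per gene cannot tell reads of the fusion from those of the endogenous genes. Mllt1 rose by 1.48 ± 0.29 log2 (edgeR adjusted p = 7.25e-04) and Kmt2a by 0.73 ± 0.23 log2 (adjusted p = 0.0183). The Kmt2a call was lost without ME replicate 2 (edgeR adjusted p = 0.0530) or control replicate 3 (0.0598). Of the sorting and progenitor markers, Cd34 stood at 819.9 to 1248 CPM in ME and 1074 to 1146 CPM in controls, and Kit and Ly6a (Sca-1) were present in all 8 libraries. Of lineage genes that the sort removes, Cd3e had 1 count in all 8 libraries, and Ms4a1 and Ly6g stayed at or under 1.16 CPM. The myeloid integrin Itgam reached 5.29 to 17.9 CPM in ME and 0.803 to 5.87 CPM in controls.

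Over 18931 genes tested, edgeR called 2684 genes higher in ME, 14.2% of those tested, and 2708 lower, 14.3%, so that 5392 or 28.5% were called in either direction. More called genes rose than fell by a large factor: 1749 rose and 313 fell by more than 2-fold, while 267 rose and 14 fell by more than 8-fold. The median log2 fold change of all genes was -0.02. All 4 ME libraries lay above all 4 controls in 1891 of the genes called higher, and below them in 1401 of those called lower. Among all 18931 tested genes, called or not, all ME libraries lay above all controls in 2268 and below them in 1711. The total was 3433 without control replicate 3 (2074 higher and 1359 lower) and 2907 with the 8wk libraries fitted alone (1974 and 933). A correction for transcript GC content moved the median of all genes to -0.17 and the split to 2146 higher and 4315 lower. Counts of the lists that follow are read against the 14.2% and 14.3% of all genes. The lists were chosen with earlier results of these data known, so a share above these is a description and not a test.

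**Figure D2:**
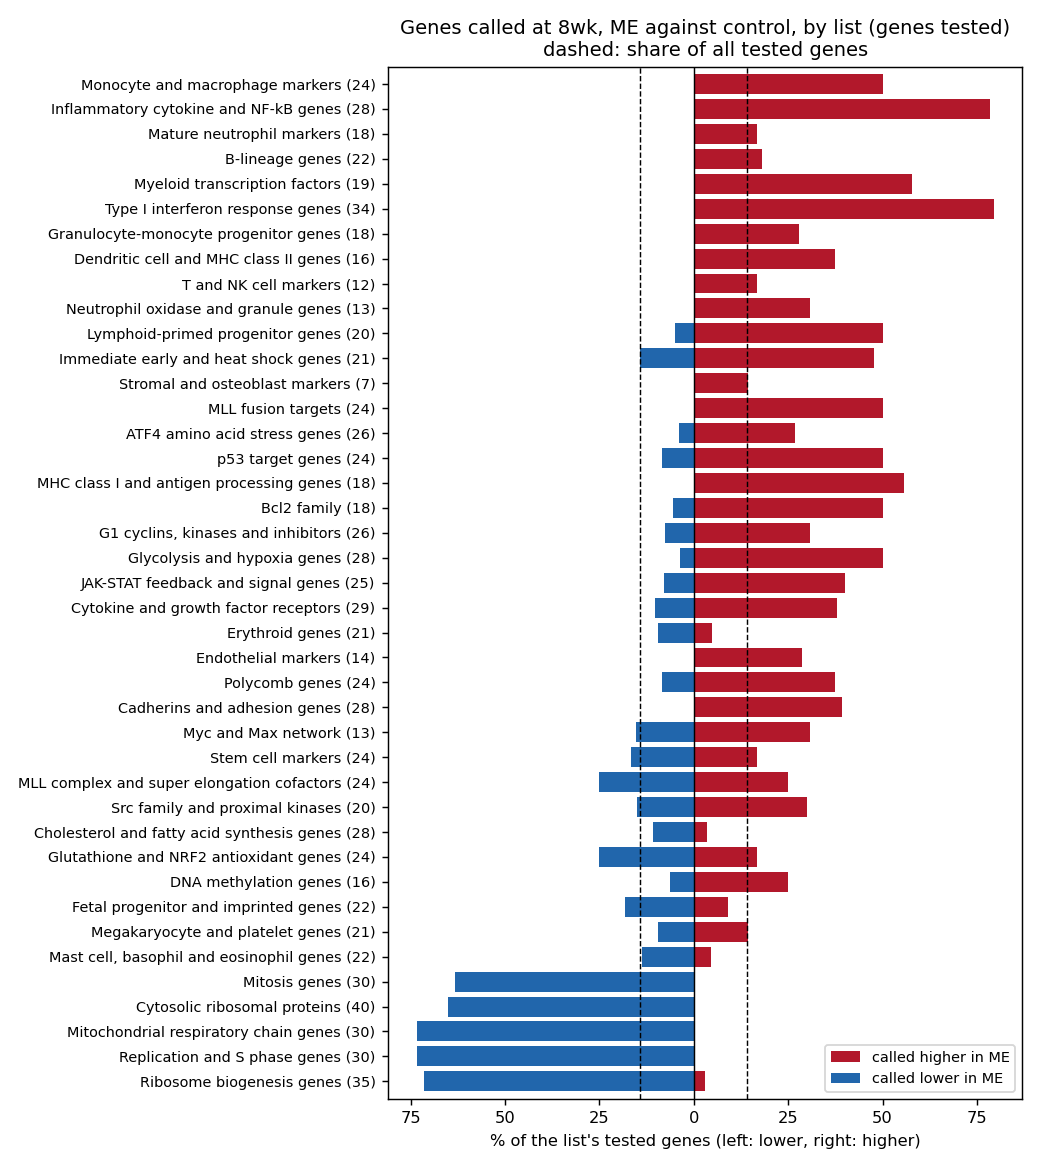
Share of each list's tested genes called higher (bars to the right) and lower (bars to the left) in ME at 8wk by edgeR, in %, with the number of tested genes in brackets; dashed lines mark the share of all tested genes. Interferon response (27 of 34) and inflammatory genes (22 of 28) lead the rises, and ribosome biogenesis (25 of 35), ribosomal protein (26 of 40), replication (22 of 30) and respiratory chain genes (22 of 30) lead the falls. Lists were chosen with earlier results of these data known.

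Of 24 tested MLL fusion targets 12 rose and the others were not called, with a median of 0.59 log2. Nkx2-3 (chromosome 19, 43612325 to 43615892 in GENCODE M21 on GRCm38), a homeobox transcription factor, stood at 17.4, 18.1, 17.3 and 13.2 CPM in ME and at 1.58, 0.839, 0.890 and 1.09 CPM in controls. It rose by 3.89 ± 0.29 log2 (edgeR adjusted p = 8.60e-09), with wide separation of the groups. Hoxa10 stood at 34.1, 43.0, 39.8 and 44.0 CPM in ME and at 16.9, 21.3, 24.6 and 19.5 CPM in controls, a rise of 0.97 ± 0.15 log2. Hoxa5†, Hoxa7† and Hoxa9† rose by 0.84 ± 0.16, 0.57 ± 0.18 and 0.58 ± 0.11 log2, each with all ME libraries above all controls, and the Hox cofactor Pbx3† by 1.28 ± 0.36 log2. Skida1, a nuclear gene among the targets, rose by 2.30 ± 0.30 log2. Their cofactor Meis1† had a log2 fold change of 0.04, the kinase Cdk6† of 0.08 and the receptor Flt3† of 0.31, and none of the 3 was called. Mef2c, a transcription factor of lymphoid and leukaemic progenitors, stood at 261 to 322 CPM in ME and 163 to 231 CPM in controls, a rise of 0.57 ± 0.09 log2. The stem cell factor Mecom† rose by 0.93 ± 0.27 log2, with the groups overlapping and the highest value in ME replicate 4.

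Genes of MLL complexes and of the elongation machinery moved both ways, with 6 of 24 higher and 6 lower. The elongation subunits Aff4 and Ell2 rose by 1.28 ± 0.17 and 1.18 ± 0.20 log2, and Cdc73†, of the polymerase-associated PAF complex, by 1.85 ± 0.33 log2. Psip1, which encodes LEDGF, the chromatin tether of MLL, stood at 57.0, 69.7, 77.2 and 67.7 CPM in ME and at 28.5, 22.7, 14.8 and 15.1 CPM in controls (1.74 ± 0.26 log2, edgeR adjusted p = 6.46e-05). Core subunits shared by MLL-type methyltransferases moved the other way: Ash2l, Wdr5† and Dpy30† fell, at -0.50 ± 0.08, -0.38 ± 0.08 and -0.71 ± 0.16 log2. The PAF subunits Ctr9† and Paf1† fell, at -0.57 ± 0.16 and -0.43 ± 0.13 log2, against the rise of Cdc73. The 6 falls became 2 with the 8wk libraries fitted alone.

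Polycomb genes, whose products silence developmental genes, gave 9 rises and 2 falls among 24. Suz12, a core subunit of the Polycomb complex PRC2, stood at 135, 155, 123 and 53.7 CPM in ME and at 27.6, 27.8, 16.2 and 24.4 CPM in controls, a rise of 2.28 ± 0.34 log2. Its accessory subunit Aebp2 rose by 2.20 ± 0.26 log2, while the catalytic subunit Ezh2† fell, at -0.38 ± 0.08 log2. In the other Polycomb complex, PRC1, Bmi1 rose by 1.58 ± 0.23 and Cbx7† by 1.36 ± 0.26 log2, both with every ME library above every control. The 2 falls became 1 without ME replicate 1 or 3 or control replicate 2, 3 or 4, 0 with the 8wk libraries fitted alone and 4 without the 2 libraries that stood apart. Among 16 DNA methylation genes 4 rose and 1 fell. The de novo methyltransferases Dnmt3a and Dnmt3b rose by 0.53 ± 0.16 and 0.90 ± 0.21 log2, and the isocitrate dehydrogenase Idh2 fell, at -0.34 ± 0.08 log2. The rises became 1 without control replicate 3 and 2 without ME replicate 1 or 3 or control replicate 2 or 4, and the falls 2 without ME replicate 3 or 4 and 3 without both libraries that stood apart.

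Outside the lists, the rule for large rises named, among others, Plch2, Kcnk12, Bcl3, Chl1 and Cttnbp2nl beside genes such as Car4 and Cdh2. Cttnbp2nl, a relative of cortactin-binding proteins, stood at 29.6, 37.8, 43.1 and 14.1 CPM in ME and at 1.90, 1.68, 0.681 and 1.03 CPM in controls (4.56 ± 0.42 log2, edgeR adjusted p = 3.35e-07). Chl1, a cell adhesion molecule of neurons, stood at 2.76 to 10.1 CPM in ME and 0 to 0.363 CPM in controls (5.09 ± 0.83 log2). Plch2, a phospholipase C, had 1668 counts over the 4 ME libraries and 2 over the 4 controls, a CPM ratio of 964 (95% interval 266 to 7963, which covers counting error only and may be too narrow). ME replicate 4 was the low ME library in Plch2, at 1.27 CPM beside 10.4 to 14.0 CPM in the other 3. The potassium channel gene Kcnk12 rose by 6.37 ± 1.36 log2, and its ME libraries spread widely, over 0.460 to 18.6 CPM. The carbonic anhydrase Car4 was at 0 counts in all controls and at 46.2, 41.3, 28.6 and 0.669 CPM in ME, at least 2029-fold higher by a floor of 3 counts over the control group. The cadherin Cdh2 stood at 12.4, 13.7, 15.0 and 9.45 CPM in ME, with counts in 1 control only.

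Among the largest falls, Podxl, the sialomucin podocalyxin of progenitor and endothelial surfaces, stood at 2.37, 4.53, 7.11 and 11.3 CPM in ME and at 31.5, 31.8, 19.2 and 19.8 CPM in controls (-2.02 ± 0.43 log2, edgeR adjusted p = 0.00161). Rps6ka6, of the ribosomal S6 kinase family, stood at 3.74 to 9.57 CPM in ME and 16.0 to 24.2 CPM in controls (-1.67 ± 0.22 log2). Plscr2, a phospholipid scramblase, fell, at -2.74 ± 0.54 log2, as did the aryl hydrocarbon receptor repressor Ahrr, at -1.93 ± 0.53 log2. Of membrane and sugar-handling genes, the carbonic anhydrase Car12 fell, at -1.55 ± 0.19 log2, with the organic anion transporter Slco4a1 (-1.54 ± 0.27), the fucosyltransferase Fut10 (-1.64 ± 0.17) and the glycosyltransferase B4galnt4 (-1.51 ± 0.27). The actin bundler Pls1 and the germinal centre signalling gene Gcsam fell, at -1.60 ± 0.49 and -1.46 ± 0.30 log2. In each of these genes all ME libraries lay below all controls, by the rule that named them.

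Kit, the stem cell factor receptor by which the cells were sorted, stood at 1385, 1631, 1763 and 1075 CPM in ME and at 596, 500.4, 376 and 476 CPM in controls. The lowest ME library was above the highest control, and the rise was 1.59 ± 0.17 log2 (edgeR adjusted p = 2.33e-06). Ly6a, the gene of the other sorting marker, rose by 1.06 ± 0.27 log2, but ME replicate 4, at 139.8 CPM, lay within the controls, at 104 to 167 CPM. Of 24 stem cell markers 4 rose and 4 fell, with a median of 0.15 log2. Procr†, the surface receptor EPCR, rose by 0.74 ± 0.24 log2. Ctnnal1, a catenin relative used to mark stem cells, fell, at -0.88 ± 0.19 log2. The factor Hlf† and the receptors Tek† and Slamf1† had log2 fold changes of 0.72, 0.10 and -0.29 and were not called. The rises became 2 without ME replicate 4 or control replicate 3, and the falls 2 without ME replicate 1 or control replicate 4. Relative to all genes the median was 0.17 log2, and -0.07 without ME replicate 4.

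Of 29 cytokine and growth factor receptor genes 11 rose and 3 fell, and 7 rose without control replicate 2 or 3. Il9r, a receptor of the mast and T cell cytokine IL-9, stood at 13.6, 19.2, 19.1 and 32.3 CPM in ME and at 0.223, 0.0524, 0.0698 and 0.257 CPM in controls, the highest level being in ME replicate 4. The subunits Csf3r, Il3ra† and Csf2rb2†, which bind G-CSF, IL-3 and relatives, rose by 0.90 ± 0.26, 1.58 ± 0.43 and 1.12 ± 0.28 log2. Il2rg, the common gamma chain of lymphoid cytokine receptors, stood at 112 to 161 CPM in ME and 74.0 to 89.2 CPM in controls (0.67 ± 0.15 log2). The falls, among them Il15ra† and the homing receptor Cxcr4†, became 0 without ME replicate 1 and 1 without ME replicate 2 or 3 or control replicate 1 or 3.

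In JAK-STAT signalling 10 of 25 genes rose and 2 fell. The kinase Jak2 stood at 58.1, 59.1, 28.7 and 17.6 CPM in ME and at 9.90, 9.28, 6.51 and 7.30 CPM in controls (2.31 ± 0.42 log2, edgeR adjusted p = 4.28e-04). Of its feedback inhibitors Socs1† rose by 2.96 ± 0.64, Socs3 by 1.81 ± 0.38 and Socs5† by 1.39 ± 0.29 log2, and Socs2† fell, at -0.84 ± 0.24 log2, each without overlap of the groups. The signal transducers Stat5a†, Stat5b† and Stat3† had log2 fold changes of 0.01, 0.33 and 0.35 and were not called. Survival kinases that cytokines induce split: Pim1 rose by 1.32 ± 0.18 log2 and Pim2† fell, at -0.63 ± 0.23 log2. The 2 falls became 0 without control replicate 3 and 1 without ME replicate 2, 3 or 4, control replicate 4 or both libraries that stood apart.

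Among 20 Src family and proximal kinases 6 rose and 3 fell. Src stood at 26.3, 28.2, 32.7 and 27.0 CPM in ME and at 2.30, 1.13, 0.436 and 0.494 CPM in controls (4.69 ± 0.46 log2, edgeR adjusted p = 1.12e-06). Fyn stood at 70.1, 75.5, 83.5 and 70.4 CPM in ME and at 25.4, 13.9, 7.93 and 8.86 CPM in controls (2.41 ± 0.36 log2). ME replicate 4 lay within the range of the other ME libraries in both genes. Lyn, which curbs cytokine signals in myeloid cells, rose by 0.40 ± 0.07 log2, and the myeloid Src kinase Fgr† rose by 1.80 ± 0.62 log2 with ME replicate 4 inside the control range. The kinases Yes1†, Btk† and Tec† fell, at -0.67 ± 0.20, -0.48 ± 0.13 and -0.44 ± 0.16 log2, and these falls became 0 without control replicate 3 and 1 without ME replicate 2 or 3.

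Of 28 adhesion genes 11 rose and the others were not called, with 1 fall without both libraries that stood apart. The integrin chains Itgal, Itgb2† and Itgb7, parts of leukocyte adhesion receptors, rose by 1.32 ± 0.22, 1.89 ± 0.34 and 1.47 ± 0.25 log2, each without overlap of the groups. Amigo2, an adhesion protein, stood at 5.25, 4.67, 4.86 and 4.58 CPM in ME and at 1.33, 0.262, 0.105 and 0.129 CPM in controls (3.34 ± 0.56 log2). The integrin chains Itga4† and Itgb1† and the P-selectin ligand Selplg† were not called (0.12, -0.02 and 0.03 log2).

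Of 20 lymphoid-primed progenitor genes 10 rose and 1 fell, with a median of 0.90 log2. Satb1, a chromatin organiser of lymphoid progenitors, stood at 25.9, 32.9, 36.7 and 24.9 CPM in ME and at 11.3, 10.1, 8.87 and 12.3 CPM in controls (1.497 ± 0.21 log2, edgeR adjusted p = 2.43e-05). Rag1† (1.72 ± 0.46) and Rag2† (0.99 ± 0.29), which cut antigen receptor loci, rose too and lay at 0.496 to 2.696 CPM and 3.18 to 6.79 CPM in ME. The transcription factors Foxo1†, Bach2† and Ikzf2 rose by 2.21 ± 0.54, 1.73 ± 0.45 and 0.81 ± 0.17 log2. The lymphoid polymerase Dntt† and the IL-7 receptor Il7r† were not called (0.38 and 1.27 log2). Cd48, a surface marker of committed progenitors, was the member that fell: it stood at 139.5, 174, 173 and 202 CPM in ME and at 263, 296, 541 and 347 CPM in controls (-1.07 ± 0.19 log2). The 1 fall became 2 without ME replicate 4 or without both libraries that stood apart.

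B-lineage genes had a positive median, but few were called. Of 22 tested 4 rose and the others were not called, with a median of 1.63 log2. In 13 of the 22 all ME libraries lay above all controls, beside 2268 of all 18931 tested genes. Bank1, a B cell scaffold, stood at 1.31, 2.96, 4.66 and 1.53 CPM in ME and at 0.349, 0.393, 0.332 and 0.172 CPM in controls (3.06 ± 0.43 log2, edgeR adjusted p = 2.68e-05). Bcl11a, a transcription factor of early lymphoid cells, rose by 0.81 ± 0.15 log2, and the surface gene Cd22 by 2.46 ± 0.90 log2. The B cell factors Pax5† and Ebf1† and the receptor genes Cd79a† and Igll1† were not called (2.53, 1.43, 2.59 and 1.74 log2). The count was 12 with the 8wk libraries fitted alone, 10 with a replicate block, and 2 with limma-voom or without ME replicate 1 or 4 or control replicate 2 or 4.

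Of 19 myeloid transcription factors 11 rose and the others were not called, with a median of 1.52 log2, and 7 rose without control replicate 3. Id2, an inhibitor of basic helix-loop-helix factors, stood at 79.3, 74.0, 58.5 and 33.2 CPM in ME and at 28.1, 27.0, 25.9 and 25.3 CPM in controls (1.205 ± 0.20 log2, edgeR adjusted p = 1.59e-04). Spi1† (PU.1) and Irf8†, regulators of myeloid fate, rose by 0.53 ± 0.17 and 1.05 ± 0.34 log2, both with overlap. Gfi1, a repressor needed for granulocytes, stood at 17.7, 17.2, 9.23 and 3.70 CPM in ME and 0.367 to 1.17 CPM in controls. Klf2, Cebpd† and Cebpb rose by 5.34 ± 1.07, 4.12 ± 1.05 and 6.01 ± 1.51 log2 with a wide spread in ME, Cebpb over 0.167 to 18.1 CPM, and Cebpb had an adjusted p of 0.184 with limma-voom. Runx1†, Myb† and Gata2†, factors of stem and early progenitor cells, were not called (0.02, 0.12 and -0.10 log2).

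Markers of more mature myeloid cells varied with the 2 libraries that stood apart. Of 24 monocyte and macrophage markers 12 rose, 17 without control replicate 1 or without both libraries, and 6 with the 8wk libraries fitted alone. In 3 of the 24 all ME libraries lay above all controls, near the share of all tested genes (2268 of 18931). The lysosomal protease Ctss stood at 94.4, 117, 97.5 and 47.9 CPM in ME and at 55.1, 15.3, 19.7 and 19.9 CPM in controls (1.69 ± 0.31 log2), so that ME replicate 4 lay under control replicate 1. The complement gene C1qb†, of macrophages, stood at 21.6, 26.8, 20.3 and 0.878 CPM in ME and at 1.62, 0, 0 and 0 CPM in controls. Of 18 mature neutrophil markers 3 rose, 16 without control replicate 1 or without both, and 1 without ME replicate 1 or control replicate 2, 3 or 4. Their summed level was 1789, 1575, 1146 and 185 CPM in ME and 1100, 124, 99.5 and 132 CPM in controls, so that control replicate 1 was above ME replicate 4. Of 18 granulocyte-monocyte progenitor genes 5 rose, 9 without control replicate 1, 11 without both and 3 without control replicate 2 or 3. The heme synthesis enzyme Alas1 was among the 5, at 1.28 ± 0.29 log2.

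The phagocyte oxidase subunits Ncf1, Ncf4 and Cyba rose by 1.15 ± 0.21, 1.04 ± 0.23 and 0.90 ± 0.27 log2, and Cybb† was not called (2.61 log2). With the myeloid receptor Clec5a they were the 4 of 13 oxidase and granule genes that rose, which became 10 without control replicate 1, 11 without both libraries that stood apart and 2 without ME replicate 1. Of 16 dendritic cell and MHC class II genes 6 rose, 10 without control replicate 1 and 12 without both. H2-DMb1, whose product loads peptides onto MHC class II, stood at 56.0 to 77.6 CPM in ME and 23.7 to 36.5 CPM in controls (1.07 ± 0.16 log2). Cd74, the invariant chain, rose by 2.27 ± 0.53 log2 and stood at 279.9, 215, 265 and 46.7 CPM in ME and at 100.3, 21.0, 18.3 and 27.2 CPM in controls, with ME replicate 4 under control replicate 1.

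Most interferon response genes rose. Of 34 type I interferon response genes 27 rose and the others were not called, against 14.2% of all genes higher, with a median of 1.30 log2. In 22 of the 34 all ME libraries lay above all controls, beside 2268 of all 18931 tested genes, and 23 to 29 rose over the settings run. Stat2† and Irf9, which carry the signal to the nucleus, rose by 1.06 ± 0.26 and 0.84 ± 0.12 log2, and Irf7†, which amplifies it, by 1.98 ± 0.36 log2. The antiviral enzyme gene Rsad2 stood at 26.7, 44.0, 40.3 and 19.4 CPM in ME and at 7.78, 5.45, 6.34 and 6.69 CPM in controls (2.31 ± 0.31 log2, edgeR adjusted p = 2.03e-05). Zbp1, a sensor of Z-form nucleic acid, stood at 25.3, 28.02, 21.8 and 7.00 CPM in ME and at 1.58, 1.18, 2.36 and 2.25 CPM in controls (3.47 ± 0.54 log2). ME replicate 4 was the lowest ME library in both and still above the highest control. The RNA sensors Ddx58† (RIG-I) and Dhx58† rose by 0.96 ± 0.21 and 1.32 ± 0.26 log2, and the RNA-binding effector Ifit1† by 2.15 ± 0.38 log2. Counts of Ifit3† and Ifit3b†, near-identical genes, are uncertain in their split (3.49 ± 0.68 and 4.25 ± 0.77 log2). The members not called were Eif2ak2†, Ifi35†, Ifit2†, Parp14†, Ifih1†, Oas2† and Ifi27l2a†. Of the receptor subunits, Ifnar1† was not called (0.20 log2) and Ifnar2† rose by 0.21 ± 0.08 log2.

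The summed level of the list was 1587, 1882, 1878 and 1229 CPM in ME and 725, 696, 944 and 833 CPM in controls. ME replicate 4, with monocyte and macrophage markers at a sum of 189 CPM, was higher in interferon genes than control replicate 1, where those markers summed to 518 CPM. Both libraries were singled out after the data were seen, and the part of monocytes and macrophages in the interferon result was not tested.

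Promoters of interferon genes are shown because the genes moved together and their DNA can be read for the letters of the interferon-stimulated response element, GAAANNGAAA. The 250 bases before the start of each gene, from RefSeq on GRCm38.p6, were searched on both strands, and 24 of the 34 genes had such a window. The letters were in 11 of the 24 (45.8%), all of them called higher, and in 821 of 27025 genes with a window (3.04%). Windows of 4 of the 11 follow, each on the gene's own strand, with the match in capitals. A match begins 120 bases before the start in Rsad2, 53 and 19 in Ddx60, 104 and 85 in Ifit1, and 36 in Trim30a, and is a description of the letters only.
Rsad2 (chr12:26456453-26456702, minus strand): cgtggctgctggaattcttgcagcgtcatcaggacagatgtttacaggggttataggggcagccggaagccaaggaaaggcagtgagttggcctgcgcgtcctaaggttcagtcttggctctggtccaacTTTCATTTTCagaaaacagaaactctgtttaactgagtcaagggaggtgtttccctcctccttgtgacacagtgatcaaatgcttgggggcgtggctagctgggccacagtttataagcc
Ddx60 (chr8:61927837-61928086, plus strand): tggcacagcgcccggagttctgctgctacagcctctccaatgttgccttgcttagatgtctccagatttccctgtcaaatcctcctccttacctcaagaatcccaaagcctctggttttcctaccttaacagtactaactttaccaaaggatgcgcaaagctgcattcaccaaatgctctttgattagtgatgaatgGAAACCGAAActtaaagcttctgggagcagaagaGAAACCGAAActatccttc
Ifit1 (chr19:34640639-34640888, plus strand): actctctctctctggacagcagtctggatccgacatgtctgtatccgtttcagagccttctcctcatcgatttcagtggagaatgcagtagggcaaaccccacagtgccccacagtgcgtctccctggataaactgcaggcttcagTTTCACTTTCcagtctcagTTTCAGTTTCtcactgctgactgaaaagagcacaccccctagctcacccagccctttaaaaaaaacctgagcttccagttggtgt
Trim30a (chr7:104465194-104465443, minus strand): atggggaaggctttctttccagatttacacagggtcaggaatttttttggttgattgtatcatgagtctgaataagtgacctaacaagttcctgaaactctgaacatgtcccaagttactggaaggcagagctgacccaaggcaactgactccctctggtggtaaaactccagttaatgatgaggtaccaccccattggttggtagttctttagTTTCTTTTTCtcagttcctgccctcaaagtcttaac
Ddx60†, an antiviral helicase-like gene, stood at 20.7 to 42.3 CPM in ME and 8.20 to 11.2 CPM in controls (1.82 ± 0.30 log2), and Trim30a†, of the interferon-induced TRIM family, rose by 1.06 ± 0.19 log2.

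Antigen presentation by MHC class I, which interferons raise, gave 10 rises among 18 genes, with a median of 0.45 log2. B2m†, the shared light chain, stood at 2249 to 2484 CPM in ME and 1664 to 1831 CPM in controls (0.45 ± 0.10 log2). Tapbp, a chaperone of peptide loading, and Tap1, a peptide transporter, rose by 1.05 ± 0.17 and 0.80 ± 0.17 log2. The immunoproteasome genes Psmb8†, Psmb9† and Psmb10† were not called (0.22, 0.31 and 0.45 log2). With control replicate 1 left out, 1 member fell. Counts of the H2 genes may be split among near-identical copies.

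**Figure D3:**
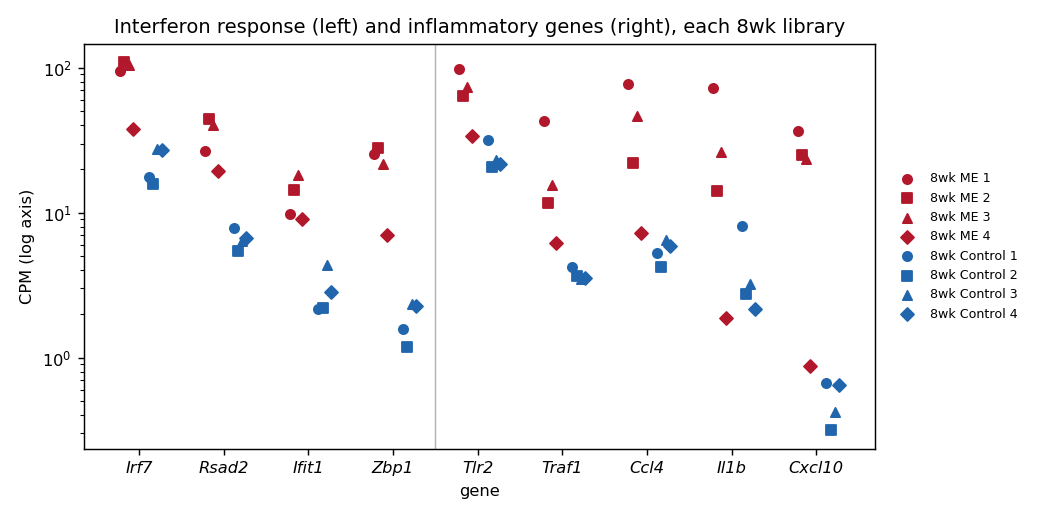
Expression in each 8wk library, on a log CPM axis, of 4 interferon response genes (Irf7, Rsad2, Ifit1, Zbp1) and 5 inflammatory genes (Tlr2, Traf1, Ccl4, Il1b, Cxcl10); each point is a library, with colour for the group and shape for the replicate. All ME points lie above all control points in each gene except Il1b, where ME replicate 4 (1.88 CPM) lies under the controls.

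Of 28 inflammatory cytokine and NF-kB genes 22 rose and the others were not called, with a median of 1.76 log2, and 14 rose with limma-voom. Tlr2, a receptor of bacterial lipoproteins, stood at 98.1, 64.3, 73.1 and 33.6 CPM in ME and at 32.0, 20.6, 23.1 and 21.8 CPM in controls (1.46 ± 0.21 log2, edgeR adjusted p = 3.02e-05). Relb† and Nfkb2†, of the non-canonical NF-kB pathway, rose by 2.51 ± 0.52 and 1.67 ± 0.35 log2, and Nfkb1† was not called (-0.13 log2). The inhibitors Nfkbia†, Nfkbie† and Tnfaip3†, which NF-kB induces as feedback, rose by 1.56 ± 0.29, 1.31 ± 0.26 and 1.38 ± 0.30 log2. Of secreted products, the chemokine Ccl4 stood at 77.0, 22.2, 46.5 and 7.25 CPM in ME and at 5.27, 4.19, 6.48 and 5.90 CPM in controls (2.81 ± 0.44 log2). Cxcl10, which interferons also induce, stood at 36.5, 25.2, 23.3 and 0.878 CPM in ME and at 0.670, 0.315, 0.419 and 0.644 CPM in controls (5.37 ± 0.79 log2), and its lowest ME library, replicate 4, was just above the controls. The cytokine Il6† and the chemokine Ccl5† were not called (0.98 and 1.05 log2).

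The summed level of these genes was 2068, 1061, 1302 and 705 CPM in ME and 669.8, 514, 555 and 600.3 CPM in controls, highest in ME replicate 1 and lowest among ME in replicate 4. Monocyte and macrophage markers, from cells that express many of these genes, were also high in ME replicates 1 to 3, and their part in the result was not tested. ME replicate 4 was above control replicate 1 in the inflammatory sum (705 against 670 CPM) and below it in the monocyte sum (189 against 518 CPM). The AP-1 gene Jund stood at 65.4, 21.9, 17.3 and 5.20 CPM in ME and at 1.40, 0.813, 1.03 and 1.14 CPM in controls (4.64 ± 0.64 log2), and its relatives Jun†, Junb† and Atf3† rose by 2.07 ± 0.48, 1.64 ± 0.49 and 3.59 ± 0.91 log2, each highest in ME replicate 1 and inside the control range in ME replicate 4. Fos† and Nr4a1†, other immediate early genes, were not called (0.79 and 0.54 log2). The cofactor Bcl3, which binds NF-kB subunits, stood at 71.6, 13.5, 18.3 and 4.08 CPM in ME and at 1.44, 0.210, 0.367 and 0.386 CPM in controls (5.42 ± 0.81 log2).

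Replication and mitosis genes fell while several G1 regulators rose. Of 30 replication and S phase genes 22 fell and the others were not called, against 14.3% of all genes lower, with a median of -0.45 log2. Mcm10, which helps assemble the replication fork, stood at 37.4, 39.3, 48.3 and 52.2 CPM in ME and at 62.3, 92.3, 83.0 and 92.9 CPM in controls (-0.90 ± 0.15 log2, edgeR adjusted p = 1.70e-04). The origin protein Orc1 and the thymidine kinase Tk1 fell, at -0.91 ± 0.16 and -0.79 ± 0.13 log2. The replicative helicase genes Mcm3†, Mcm5†, Mcm6† and Mcm7† fell, at -0.38 ± 0.12, -0.41 ± 0.10, -0.47 ± 0.10 and -0.35 ± 0.10 log2, and Mcm2† and Mcm4† were not called (-0.10 and -0.19). Of 30 mitosis genes 19 fell and the others were not called, with a median of -0.37 log2. Cenpe, a motor protein of the kinetochore, stood at 9.04, 14.8, 18.4 and 16.9 CPM in ME and at 24.8, 38.3, 26.1 and 34.1 CPM in controls (-1.06 ± 0.24 log2). Cdc20 and Ccnb1, which drive mitotic exit and entry, fell, at -0.48 ± 0.11 and -0.45 ± 0.10 log2, and Foxm1†, Plk1† and Ccna2† were not called (0.13, -0.20 and -0.07 log2).

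Both summed levels were lower in every ME library: S phase genes at 6171 to 7225 CPM against 7685 to 9378 CPM, and mitosis genes at 3918 to 4332 CPM against 4634 to 5532 CPM. The mitosis count was 12 without control replicate 3, and with the 8wk libraries fitted alone 11 S phase and 9 mitosis genes fell. Of 26 G1 genes 8 rose and 2 fell. E2f1, a driver of S phase genes, stood at 70.9, 72.2, 44.1 and 17.9 CPM in ME and at 11.3, 7.86, 6.83 and 8.54 CPM in controls (2.57 ± 0.47 log2). E2f2 and the phosphatase Cdc25a, which start S phase, rose by 1.72 ± 0.29 and 1.60 ± 0.22 log2, and so did the brakes Cdkn1a (2.21 ± 0.44), Rb1† (2.13 ± 0.46) and Cdkn2d (0.87 ± 0.15). The kinase Cdk4† and the repressor E2f4† fell, at -0.50 ± 0.09 and -0.43 ± 0.14 log2, and 1 fall was left without ME replicate 1 or 2 or control replicate 2 or 4. The D cyclins Ccnd1†, Ccnd2† and Ccnd3† were not called (0.39, -0.09 and 0.40 log2).

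Mitosis promoters were read for the letters TTTGAA of the cell cycle homology region, an element of mitotic promoters, on both strands. They were in 7 of 24 mitosis genes with a window (29.2%) and in 16.3% of all genes. At least 3 of the 7 were called lower, where genes on a chromosome left out of the choice of windows were not counted. Windows of Cdc20 and Cdk1 are shown as examples, from RefSeq on GRCm38.p6 with the match in capitals, which begins 18 bases before the start in Cdc20 and 71 and 15 in Cdk1.
Cdc20 (chr4:118437344-118437593, minus strand): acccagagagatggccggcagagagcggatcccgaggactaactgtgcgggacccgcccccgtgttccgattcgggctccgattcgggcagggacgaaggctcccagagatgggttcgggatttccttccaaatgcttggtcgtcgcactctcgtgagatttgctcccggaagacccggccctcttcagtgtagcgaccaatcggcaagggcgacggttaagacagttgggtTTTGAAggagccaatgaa
Cdk1 (chr10:69352913-69353162, minus strand): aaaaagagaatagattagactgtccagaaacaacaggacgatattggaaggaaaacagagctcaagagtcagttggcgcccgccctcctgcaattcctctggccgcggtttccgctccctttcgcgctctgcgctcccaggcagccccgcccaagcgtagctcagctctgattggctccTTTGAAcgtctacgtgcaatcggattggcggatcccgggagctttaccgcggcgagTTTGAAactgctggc
Cdk1†, the mitotic kinase, fell, at -0.54 ± 0.12 log2, and stood at 252, 251, 243 and 203 CPM in ME and at 251, 336, 436 and 360.3 CPM in controls.

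Myc stood at 277, 199, 209 and 214 CPM in ME and at 364, 369, 282 and 431 CPM in controls, and fell, at -0.68 ± 0.13 log2 (edgeR adjusted p = 6.28e-04). Mycn stood at 64.3, 47.9, 53.3 and 92.8 CPM in ME and at 157, 149, 117 and 161 CPM in controls (-1.18 ± 0.15 log2). No ME library reached a control in either gene. The Myc antagonists Mxi1 and Mxd1, which compete for the partner Max, rose by 2.06 ± 0.25 and 1.17 ± 0.20 log2, and Mxd4† by 1.00 ± 0.21 log2 with overlap, while Max† was not called (-0.07 log2). In all, 4 of 13 genes of this network rose and 2 fell.

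Of 35 ribosome biogenesis genes, many of them known Myc targets, 25 fell and 1 rose, with a median of -0.56 log2, and 21 to 29 fell over the settings run. Npm1, the nucleolar chaperone nucleophosmin, stood at 813, 756, 667 and 689.5 CPM in ME and at 967, 1412, 1645 and 1369.7 CPM in controls (-0.88 ± 0.12 log2, edgeR adjusted p = 3.06e-05). Gnl3, a nucleolar GTPase, fell, at -0.99 ± 0.14 log2, with Nop56, Nop58† and Fbl†, of the particles that modify ribosomal RNA, at -0.74 ± 0.12, -0.68 ± 0.11 and -0.62 ± 0.11 log2. The RNA polymerase I genes Polr1b†, Polr1c† and Polr1e† fell, at -0.61 ± 0.10, -0.60 ± 0.12 and -0.67 ± 0.12 log2, and Polr1a† and Rrn3† were not called (-0.30 and -0.01). The member that rose was Rrs1†, a ribosome assembly factor, which stood at 54.1 to 75.03 CPM in ME and 7.79 to 25.1 CPM in controls (2.16 ± 0.44 log2). The letters CACGTG of the Myc E-box were in 2 of 30 promoters of the list (6.67%) and in 6.05% of all.

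Of 40 cytosolic ribosomal protein genes 26 fell and the others were not called, with a median of -0.40 log2. In 5 of the 40 all ME libraries lay below all controls, not far from the share of all tested genes (1711 of 18931). Rpl5, of the large subunit, fell, at -0.81 ± 0.15 log2. The summed level was 30370, 27660, 24260 and 24450 CPM in ME and 27130, 32400, 41070 and 37560 CPM in controls, so that control replicate 1 lay inside the ME range. The count was 16 without control replicate 3 or with a replicate block, and 10 with the 8wk libraries fitted alone. Of 30 nuclear genes of the mitochondrial respiratory chain 22 fell and the others were not called, with a median of -0.42 log2. Sdhd, Uqcrc2 and Ndufa4, of complexes II, III and IV, fell, at -0.81 ± 0.12, -0.70 ± 0.12 and -0.68 ± 0.15 log2, without overlap. That count was 8 without control replicate 3, 14 without ME replicate 4, 11 with a replicate block and 7 with the 8wk libraries fitted alone. Both lists hold short transcripts, with a median of 1124 and 1763 bases against 2695 for all genes, and genes in the fifth with the shortest transcripts had a median log2 fold change of -0.28, against 0.104 in the fifth with the longest. The part of length in these falls was not tested.

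**Figure D4:**
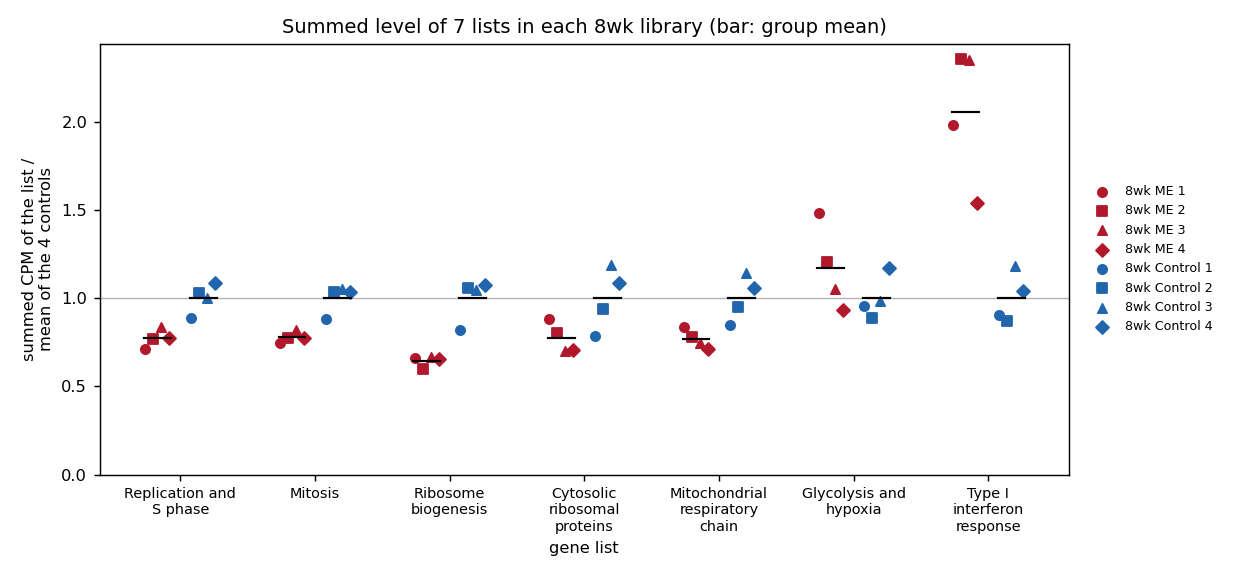
Summed CPM of 7 gene lists in each 8wk library, divided by the mean of the 4 controls; each point is a library, with colour for the group and shape for the replicate, and bars are group means. ME and control points do not overlap for replication, mitosis, ribosome biogenesis, respiratory chain and interferon genes, and overlap for ribosomal proteins and glycolysis.

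Of 28 glycolysis and hypoxia genes 14 rose and 1 fell, with a median of 0.38 log2 and 25 of the 28 above 0. Aldoc, an aldolase, stood at 161, 150.5, 101 and 105 CPM in ME and at 67.5, 40.3, 44.7 and 50.2 CPM in controls (1.35 ± 0.28 log2, edgeR adjusted p = 0.00113). Ndrg1 and Ddit4, both induced by low oxygen, rose by 0.86 ± 0.17 and 1.34 ± 0.30 log2, and Pdk1†, which holds pyruvate out of the mitochondrion, by 0.51 ± 0.15 log2. Of glucose transporters Slc2a1† rose by 0.78 ± 0.18 log2, and Slc2a3 fell, at -0.70 ± 0.12 log2, with 135 to 189 CPM in ME and 221 to 314 CPM in controls. The enzymes Ldha†, Pgk1† and Gapdh† were not called (-0.09, 0.08 and 0.16 log2). The number of rises was 7 without ME replicate 2 or control replicate 2, 8 without ME replicate 1 or with the GC correction, 9 without control replicate 3 or with a replicate block, and 6 with the 8wk libraries fitted alone. The summed levels overlapped, at 15060 to 23940 CPM in ME and 14300 to 18940 CPM in controls.

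The core letters ACGTG of hypoxia response elements, which lie within the E-box letters CACGTG, were in 13 of 26 promoters of these genes and in 16.6% of all, on either strand. At least 5 of the 13 genes were called higher, where genes on a chromosome left out of the choice of windows were not counted. Windows of Egln3†, an oxygen sensor, and of Slc2a1 are shown from RefSeq on GRCm38.p6, with the match in capitals, which begins 229 bases before the start in Egln3 and 36 in Slc2a1.
Egln3 (chr12:54203875-54204124, minus strand): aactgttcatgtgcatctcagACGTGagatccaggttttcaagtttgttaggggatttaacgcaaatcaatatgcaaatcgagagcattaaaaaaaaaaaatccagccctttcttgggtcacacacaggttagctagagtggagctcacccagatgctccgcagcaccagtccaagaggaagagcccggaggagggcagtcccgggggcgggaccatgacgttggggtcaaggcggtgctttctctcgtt
Slc2a1 (chr4:119108495-119108744, plus strand): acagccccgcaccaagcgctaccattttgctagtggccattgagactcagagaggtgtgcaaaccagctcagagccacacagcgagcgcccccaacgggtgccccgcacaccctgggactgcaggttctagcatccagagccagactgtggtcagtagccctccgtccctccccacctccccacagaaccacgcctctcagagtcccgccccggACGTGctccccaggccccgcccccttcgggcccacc
Egln3 rose by 0.45 ± 0.16 log2 with overlap, at 99.2 to 189 CPM in ME and 85.1 to 129 CPM in controls, and Slc2a1 stood at 259, 185, 113 and 116 CPM in ME and at 92.6, 89.9, 86.7 and 123 CPM in controls.

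Of 24 p53 target genes 12 rose and 2 fell, and 7 rose without control replicate 2 and 6 with the 8wk libraries fitted alone. Trp53inp1, a stress-induced p53 cofactor, stood at 68.4, 103, 89.3 and 103 CPM in ME and at 66.6, 31.8, 39.1 and 35.1 CPM in controls (1.08 ± 0.22 log2, edgeR adjusted p = 0.00103). Control replicate 1 was the highest control here and also in Cdkn1a and in the p53 targets Phlda3† (1.56 ± 0.47) and Zmat3† (1.00 ± 0.37). The death genes Pmaip1 (NOXA) and Bbc3† (PUMA) rose by 2.02 ± 0.38 and 1.37 ± 0.43 log2, while the p53 inhibitor Mdm2† and the nuclease Aen† were not called (0.22 and 0.02 log2). The falls, in Perp† (-1.17 ± 0.29) and Ckap2† (-0.53 ± 0.16), became 1 without ME replicate 1 or control replicate 3 and 5 with the GC correction. Among 18 Bcl2 family genes 9 rose and 1 fell. The survival gene Mcl1 stood at 243, 225, 102 and 37.7 CPM in ME and at 22.7, 21.1, 21.5 and 23.6 CPM in controls (2.77 ± 0.57 log2), and Bcl2a1a, Bcl2a1b and Bcl2a1d†, near-identical survival genes whose split is uncertain, rose by 4.88 ± 0.92, 4.87 ± 0.85 and 4.02 ± 0.85 log2. The survival genes Bcl2† and Bcl2l1† were not called (-0.28 and 0.18 log2), and 5 members rose with the 8wk libraries fitted alone.

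Of 24 glutathione and antioxidant genes 4 rose and 6 fell. Gclc and Gclm, the subunits of the enzyme that limits glutathione synthesis, rose by 2.88 ± 0.46 and 2.29 ± 0.43 log2, and Gclc stood at 77.9, 69.5, 53.4 and 21.9 CPM in ME and at 11.1, 7.29, 5.64 and 6.33 CPM in controls. Gsto1, Txn1 and Nqo1†, redox enzymes, fell, at -0.59 ± 0.08, -0.55 ± 0.14 and -0.91 ± 0.24 log2, and the regulator Nfe2l2† was not called (-0.11 log2). The rises became 7 without control replicate 1 or without both libraries that stood apart, and the falls 3 without control replicate 3. Of 26 ATF4 amino acid stress genes 7 rose and 1 fell, among them the kinase-like Trib3 at 1.87 ± 0.39 log2 and the amino acid transporter Slc7a5 at 1.75 ± 0.60 log2. This count turned on single libraries: 14 rose without ME replicate 4, 11 without control replicate 1, 17 without both, 2 without ME replicate 1 or control replicate 2, and 3 without ME replicate 2 or control replicate 3 or 4. The 1 fall, in Psat1† (-0.45 ± 0.16), was lost without ME replicate 2, 3 or 4 or control replicate 2, 3 or 4. Of 28 cholesterol and fatty acid synthesis genes 1 rose and 3 fell, with the fatty acid elongase Elovl6 at -0.76 ± 0.15 log2. The rise became 3 without ME replicate 4, 4 without both and 0 without ME replicate 1, and the falls 1 without control replicate 3. The heat shock genes Hsp90aa1, Hspa8† and Hsph1 fell, at -0.56 ± 0.10, -0.59 ± 0.19 and -0.70 ± 0.16 log2, so that 3 of 21 immediate early and heat shock genes fell and 10 rose, 5 with the 8wk libraries fitted alone.

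Of 21 megakaryocyte and platelet genes 3 rose and 2 fell, with a median of -0.09 log2. The granule trafficking gene Rab27b fell, at -1.02 ± 0.25 log2, and the matrix glycoprotein Thbs1 and the platelet receptor chain Gp5 rose by 3.14 ± 0.84 and 2.86 ± 0.80 log2. The rises became 5 without control replicate 1 or without both libraries that stood apart, and the falls 1 without ME replicate 1 or 2 or control replicate 1 or 4. The median relative to all genes, -0.08, turned to 0.41 without control replicate 1. Of 21 erythroid genes 1 rose and 2 fell, 7 rose without control replicate 1 and 9 without both. The 1 rise was in Bcl11a, which is also on the list of B-lineage genes and counted there. Nfe2, a factor of erythroid and platelet cells, fell, at -0.51 ± 0.13 log2, as did Hbb-bt, whose reads may be shared with Hbb-bs, at -0.95 ± 0.26 log2. Genes of mast cells, basophils and eosinophils gave 1 rise and 3 falls among 22. Fcer1g, the shared Fc receptor chain, stood at 183 to 224 CPM in ME and 96.4 to 131 CPM in controls (0.91 ± 0.14 log2, edgeR adjusted p = 6.46e-05), and the leukotriene enzyme Alox5 fell, at -0.96 ± 0.35 log2. The 1 rise became 2 without control replicate 1, where the median relative to all genes turned from -0.11 to 0.14, and 3 without both.

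Of 22 fetal progenitor and imprinted genes 2 rose and 4 fell. Lin28b, an RNA-binding regulator of fetal programmes, stood at 0.631, 0.427, 0.237 and 0.125 CPM in ME and at 1.41, 1.47, 1.61 and 0.987 CPM in controls (-1.96 ± 0.30 log2, edgeR adjusted p = 6.81e-05). Dlk1, an imprinted surface protein, stood at 3.41 to 10.5 CPM in ME and 13.4 to 26.8 CPM in controls (-1.90 ± 0.39 log2). The RNA-binding gene Igf2bp3 and the receptor Igf2r† were the rises (0.83 ± 0.21 and 1.17 ± 0.41 log2), which became 1 without ME replicate 2, 3 or 4 or control replicate 2, 3 or 4, and 5 without control replicate 1 or without both libraries that stood apart. Of 12 T and NK cell markers 2 rose, Klrb1c and Cd247, neither above 1.85 CPM in any library, 0 without ME replicate 1 or control replicate 2, 3 or 4, 1 without ME replicate 2 or 3 and 4 without both. Of 14 endothelial markers 4 rose, among them the sialomucin Emcn at 0.83 ± 0.26 log2, and 2 rose without ME replicate 3 or control replicate 2. Of 7 stromal and osteoblast markers 1 rose, Runx2, which is also on the list of MLL fusion targets (1.29 ± 0.27 log2), and 2 rose without ME replicate 4, control replicate 1 or both.

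The ME effect at 8wk was then compared with that at the other ages by interaction contrasts of the same edgeR fit. The comparisons at P14 and E16 have control libraries of their own, and E16 cells came from liver, so age and tissue cannot be told apart there. Against P14 the effect differed in 57 genes, 0.301% of those tested, with 37 (0.195%) higher at 8wk and 20 (0.106%) lower. Against E16 it differed in 161 genes, 0.85%, with 87 (0.46%) higher and 74 (0.391%) lower. Of genes called at 8wk, 28 differed from both ages in the same direction: 20 rose with a higher effect at 8wk, 6 fell with a lower effect at 8wk, and 2 (Skida1 and Hoxa10) rose with a lower effect at 8wk. These counts turned on single libraries. The total against P14 was 5 without ME replicate 2 or control replicate 2, 9 and 8 without ME replicate 1 and 3, 38 and 33 without control replicate 3 and 4, 224 without ME replicate 4, 369 without control replicate 1 and 818 without both libraries that stood apart. The total against E16 was 48 without control replicate 2, 72 to 104 without ME replicate 1, 2 or 3 or control replicate 3 or 4, 739 without ME replicate 4, 896 without control replicate 1 and 1513 without both.

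Kit was among the 20. Its mean was 1463 ± 303 CPM in ME and 487 ± 90.6 CPM in controls at 8wk (SD, n = 4 per group), 649.7 ± 159 CPM in ME and 603 ± 37.3 CPM in controls at P14, and 645 ± 93.3 CPM in ME and 465 ± 62.5 CPM in controls at E16. The effect at 8wk was larger by 1.48 ± 0.24 log2 than at P14 (edgeR adjusted p = 0.0162) and by 1.11 ± 0.24 log2 than at E16 (adjusted p = 0.0271). The difference from P14 was called on leaving out each of the 8 libraries, and that from E16 in 2 of 8 such fits. Il1rl2, a receptor of the IL-36 cytokines, averaged 28.8 ± 6.83 CPM in ME and 12.1 ± 1.33 CPM in controls at 8wk and 15.5 ± 1.79 CPM in ME and 26.5 ± 3.90 CPM in controls at E16. Its effect at 8wk was higher than at P14 by 1.51 ± 0.23 log2 (edgeR adjusted p = 0.00819) and than at E16 by 2.02 ± 0.23 log2 (adjusted p = 2.11e-04), and both differences were called on leaving out each library. Il1r2, a decoy receptor of IL-1, differed in the same direction, by 1.29 ± 0.27 and 1.58 ± 0.27 log2, called in 3 and 8 of the 8 fits that leave out a library. Selenow, a small selenoprotein, stood at 146, 139.9, 136 and 145 CPM in ME and at 173, 286, 320.4 and 274 CPM in controls at 8wk, while at E16 it averaged 181 ± 21.3 CPM in ME and 161 ± 4.38 CPM in controls, and its effect at 8wk was lower than at P14 (-1.08 ± 0.19 log2, called in 5 of the 8 fits) and than at E16 (-1.06 ± 0.19 log2, called in all 8).

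With edgeR on all libraries, glycolysis genes were the list with the most members called in these differences, 9 of 28 higher against P14 (0.195% of all genes) and 10 of 28 higher against E16 (0.46% of all genes), with 7 in both. Their median ME effect was 0.38 log2 at 8wk, -0.29 at P14 and -0.34 at E16, with 25, 7 and 7 of the 28 above 0. The aldolase gene Aldoa† averaged 1787 ± 506 CPM in ME and 1164 ± 177 CPM in controls at 8wk, 807 ± 63.7 CPM in ME and 1174 ± 91.1 CPM in controls at P14, and 806 ± 78.2 CPM in ME and 1288 ± 49.0 CPM in controls at E16. Its effect at 8wk was larger by 1.16 ± 0.20 log2 than at P14 (edgeR adjusted p = 0.0213) and by 1.29 ± 0.20 log2 than at E16 (adjusted p = 0.00321), called in 6 and 8 of the 8 fits that leave out a library. The enzymes Tpi1†, Eno1†, Gpi1† and Pfkp†, Egln3 and Ndrg1 were the other 6 in both. Against P14, 0 of 28 were called without ME replicate 2 or control replicate 2 or with a replicate block, 1 without ME replicate 1 and 2 without ME replicate 3, while 14 were called without both libraries that stood apart. Against E16, 3 were called without control replicate 2, 5 and 6 without ME replicate 1 and 2, 6 without control replicate 3, 5 with a replicate block, 4 with a Y-linked covariate and 15 without both libraries that stood apart.

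The inflammatory cytokine and NF-kB genes gave counts that moved with the settings. With edgeR on all libraries 0 of 28 were called against P14 and 4, all higher, against E16. At an unadjusted p under 0.05 the counts were 20 and 23 of 28 (71.4% and 82.1%), beside 11.6% and 14.4% of all genes. Against P14, DESeq2 called 9, the replicate block 1 and limma-voom 0, and 11 were called without ME replicate 4, 4 without control replicate 1 and 16 without both. Against E16, DESeq2 called 17, the replicate block 7 and limma-voom 0, and 20 were called without ME replicate 4, 16 without control replicate 1 and 21 without both. Against E16, 0 were called without control replicate 2, with no filter or with a Y-linked covariate, 1 without ME replicate 1, and 8 or 9 with DESeq2 size factors, at least 1 CPM in 4 libraries or the GC correction. In the DESeq2 fit and in these 3 fits without ME replicate 4, control replicate 1 or both, this list had more calls against E16 than the glycolysis list, which had 13, 14, 13 and 15.

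**Figure D5:**
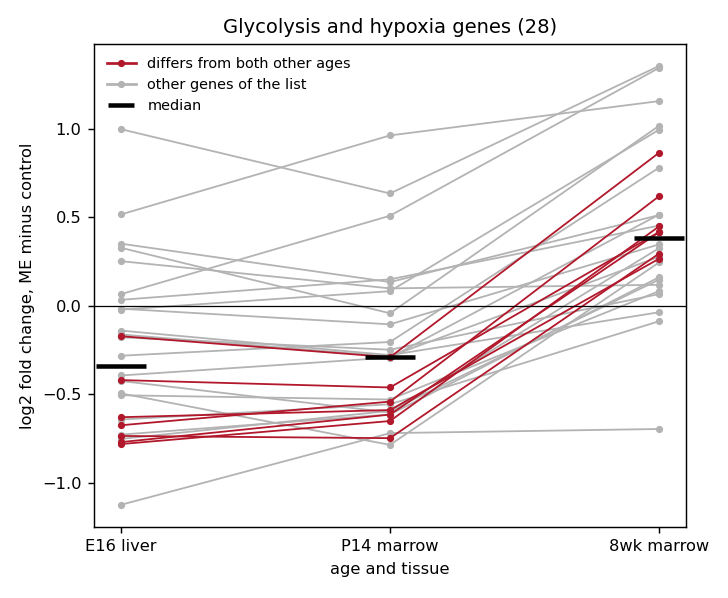
ME effect (log2 fold change, edgeR) of the 28 glycolysis and hypoxia genes at E16, P14 and 8wk; each gene is a line, red for the 7 genes whose 8wk effect differed from both other ages, and black bars are medians. At 8wk 25 of the 28 effects lie above 0, and 7 at each of the other ages.

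MLL fusion targets gave another picture. Their median effect was 0.59 log2 at 8wk, 0.88 at P14 and 0.95 at E16, with 0 of 24 higher at 8wk and 2 and 3 lower against P14 and E16. The 2 became 0 without control replicate 2 or with a replicate block and 1 without ME replicate 1, 2 or 3 or control replicate 3 or with limma-voom, and the 3 became 6 without ME replicate 4 or without both libraries that stood apart and 5 with DESeq2. Hoxa10 averaged 40.2 ± 4.44 CPM in ME and 20.6 ± 3.25 CPM in controls at 8wk and 72.2 ± 12.3 CPM in ME and 15.5 ± 2.42 CPM in controls at P14, a difference in effect of -1.25 ± 0.21 log2 (edgeR adjusted p = 0.0213), called in 7 of the 8 fits that leave out a library. Src and Fyn were called in neither difference, at 0.15 ± 0.58 and -0.36 ± 0.49 log2 against P14. Of the 199 tested genes of the interferon, replication, mitosis, ribosome biogenesis, ribosomal protein and respiratory chain lists, edgeR called 0 in either difference, where 0.301% and 0.85% of all genes were called, so that a count of 0 is near the background. At an unadjusted p under 0.05, 29 of them (14.6%) differed from P14 and 29 (14.6%) from E16, beside 11.6% and 14.4% of all genes. Of the latter 29, 14 were in the interferon list, where DESeq2 called 4 against E16; DESeq2 called 0 of the 199 against P14, and limma-voom 0 in either difference. Without control replicate 1, 5 of the 199 were called against P14 and 8 against E16, without ME replicate 4, 0 and 4, and without both, 6 and 11.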

How the data were processed

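The deposited table holds whole-number read counts per gene for 24 libraries. For these counts the submitters' processing notes name GRCm38, STAR 2.7.9a, Subread and featureCounts 2.0.3. The strand setting and annotation are not given in the sources used here. Of the 55774 lines, those of 168 gene IDs repeat the same counts and were kept once, which left 55487 genes, of which 55227 matched GENCODE M21. Among counts of 1 to 20, 63.6% were even, so counts may not be independent and counting intervals may be too narrow.

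Genes were kept by filterByExpr of edgeR 4.0.16 (R 4.3.3) at a minimum count of 10. They were scaled by TMM and tested by robust quasi-likelihood with a mean for each of 6 groups. DESeq2 1.42.0, limma 3.58.1 (voom), 2 other scalings, 2 other filters, a replicate block, a GC correction, a Y-linked covariate, the 8wk libraries alone and leaving out each library were alternatives. Permutation tests of library measures ran in Python 3.11.15. In counts simulated for 18499 genes of the 8wk comparison, edgeR recovered 58 of 100 true 2-fold and 91 of 100 true 4-fold changes, with 2 false calls among 18299. These counts were drawn independently for each gene and library.

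Members and the 42 gene lists were chosen with earlier results of these data known. The rule named Kmt2a, Mllt1 and Skida1; the 15 largest rises and falls among called genes of at least 5 CPM in the higher group whose groups did not overlap, passing over clone-type symbols; up to 4 called genes of smallest adjusted p per list; and 6 genes per direction that differed from both other ages. Promoter windows are from RefSeq. Some genes are not reported here by name but remain in the counts over lists and over all genes.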

Additional observations from a re-analysis of the deposited data

Results flagged for a closer look

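Dixon's test at 95% was run on 72 groups of 4 libraries (33 genes and 3 library measures). In 12 groups the gap of a library to its nearest neighbour took up most of the group's range. Chance gives about 5% of groups where values are independent and normally distributed. CPM values from the same libraries need not be so, and the 12 of 72 is a description. The low ones among the controls were replicate 3 for Mllt1 (9.90 CPM) and replicate 1 for Gzmb (9.46 CPM) and Fut10 (33.8 CPM). The high ones among the controls were replicate 1 for Bcl3 (1.44 CPM) and Cd14 (4.69 CPM) and replicate 4 for Cdh2 and Plch2, each at 0.0429 CPM. In Cdh2 the other controls were at 0 CPM, so that any count there is flagged. Of the ME libraries, replicate 1 was high for Cebpb (18.1 CPM), replicate 2 for the share of ribosomal RNA (1.38%), and replicate 4 for Mcpt8 (20.5 CPM), Fut10 (23.3 CPM) and Slco4a1 (79.3 CPM).

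The ME effect at 8wk differed from that at both other ages in the following named genes by the interaction test of edgeR, with differences in log2 first against P14 and then against E16. Lower at 8wk were Skida1 (-1.99 and -2.09), Hoxa10 (-1.25 and -1.15), Fut10 (-1.14 and -1.14), Selenow (-1.08 and -1.06), Ptar1, a prenyltransferase relative (-0.87 and -0.81), and Zfp113, a zinc finger gene (-0.83 and -0.89). Higher at 8wk were Pmaip1 (2.62 and 2.82), Spint1, a protease inhibitor (1.71 and 2.13), Upp1, a uridine phosphorylase (1.66 and 1.70), Ncf1 (1.59 and 1.84), Il1rl2 (1.51 and 2.02) and Il1r2 (1.29 and 1.58). Of these 12 genes only Il1rl2 had both differences called on leaving out each of the 8 libraries. For Fut10 both were called in 2 of 8 such fits.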

How the results depend on the processing

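The direction of every gene named by rule, 179 in all, was the same under each of 18 alternative settings in which it was tested. Genes chosen after their values were seen were not part of this check. Of the 179 named genes, 145 also kept their call, and 34 lost it in 1 or more, up to 19 of them with the 8wk libraries fitted alone; Car4 (adjusted p = 0.0609) and Cebpb (0.184) lost it with limma-voom. The total of 5392 calls at 8wk was 2907 with the 8wk libraries alone and 3433 to 6571 on leaving out a library; the 2708 falls were 933 with the 8wk libraries alone, 4315 with the GC correction and 1359 to 3276 on leaving out a library. The share of calls that were higher was 49.8%, against 67.9% with the 8wk libraries alone, 33.2% with the GC correction and 60.4% without control replicate 3.

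The differences of effect moved more. Against P14 the total of 57 (37 higher, 20 lower) was 297 with DESeq2 (211 and 86) and 88 with the GC correction (76 and 12). The falls were 13 with limma-voom. Leaving out a library gave 5 to 369 in all, 4 to 204 higher and 1 to 165 lower, and leaving out both libraries that stood apart, chosen after seeing the data, gave 818 (452 and 366). Against E16 the total of 161 (87 higher, 74 lower) was 592 with DESeq2 (349 and 243), 107 with no filter (57 higher), 250 with at least 1 CPM in 4 libraries (133 and 117) and 59 with the Y-linked covariate (29 and 30). The higher genes were 166 with the GC correction and the lower 48 with limma-voom. Leaving out a library gave 48 to 896 in all, 22 to 504 higher and 26 to 392 lower, and leaving out both gave 1513 (786 and 727). The cause was not tested, except that fits without a library hold fewer samples.

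Same-numbered ME and control libraries did not deviate together (r = 0.061, -0.088, -0.086 and 0.118), so the numbers are not taken as pairs. With a replicate block 4333 genes were called at 8wk (2414 higher, 1919 lower), and 2 differed from P14 (2 higher, 0 lower).

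A library of 39.3 M counts or more leaves 1 count at under 0.03 CPM. Genes near 0 in controls, such as Car4, Cdh2 and Plch2, have folds bounded by few counts. With 4 libraries a group, small changes can be missed: the simulated 2-fold changes were recovered in 58 of 100. No simulated library stood apart from its group, so this share does not show what is missed with 1 apart in each. The simulation changed 100 genes at each fold, drawn from those above a minimum level in controls, while 28.5% of genes were called in the data. The adjusted p depends on how many genes change, so 58 of 100 does not give the share missed in the data.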

Other observations

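Of the 20 genes that rose at 8wk with a higher effect than at both other ages, several are not named above; they were chosen after their values were seen. Tpm4, a tropomyosin of the actin cytoskeleton, rose by 2.11 log2 at 8wk, 1.03 more than at P14 and 1.21 more than at E16 (edgeR adjusted p = 0.0222 and 0.00314), called in 4 and 8 of the 8 fits that leave out a library. Anxa2, a calcium-dependent membrane-binding protein, rose by 0.77 log2, 1.16 and 1.21 more (adjusted p = 0.0497 and 0.0240), and the hyaluronan receptor Cd44 by 0.52 log2, 0.84 and 0.87 more (adjusted p = 0.0213 and 0.00547). Atp6ap1, an accessory subunit of the proton pump of acidic organelles, rose by 0.52 log2, 0.503 and 0.45 more. Of the 8 fits, Anxa2 was called in 2 against P14 and 5 against E16, Cd44 in 4 and 8, and Atp6ap1 in 3 and 2. Ak4, an adenylate kinase of mitochondria that low oxygen is known to induce, rose by 0.42 log2, 1.08 and 1.04 more (adjusted p = 0.00819 and 0.00426), and both of its differences were called on leaving out each of the 8 libraries. Bax, a pore-forming death gene, rose by 0.36 log2, 0.95 and 0.73 more, called in 8 and 7 of the 8 fits.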
